A study of Mus musculus with 6 samples.

Results

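The genes described here carry iron out of the cell, bring it in, store it, or release it from heme: the exporter gene Slc40a1 (ferroportin), the transporter genes Slc11a1 and Slc11a2 and the transferrin receptor gene Tfrc, the ferritin chain genes Fth1 and Ftl1, and the heme oxygenase gene Hmox1. They were chosen by name, as every probe whose single annotated symbol was one of these 7, which gave 9 of the 16281 probes of the table and 7 of its 10698 named genes. The samples were total RNA of RAW 264.7 cells, an established line of mouse macrophages. Treated cells received lipopolysaccharide (LPS, the endotoxin of Gram-negative bacteria) at 100 ng/ml together with LPS-binding protein (LBP, the serum protein that hands LPS to its receptor) at 100 pM and were cultured for 2 h; untreated cells were cultured for 2 h without them. Every array held both RNAs. The treated RNA carried Cy5 on 3 arrays, here called forward, and Cy3 on the other 3, here called swapped, and sets 1 to 3 number a forward and a swapped array each. The labels name no separate cultures, so p-values measure the spread between these sets, which may be technical. The line came from BALB/c mice, which carry a nonfunctional allele of Slc11a1, so its transcript is measured here and not a working transporter.

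A macrophage that takes up aged red cells breaks their heme with heme oxygenase, keeps the freed iron in ferritin or sends it out through ferroportin, the only known exporter of iron from animal cells. Transferrin-bound iron enters by the transferrin receptor and leaves the endosome through the divalent metal transporter that Slc11a2 encodes, while Slc11a1 encodes a related transporter of the phagosome membrane. Several of these transcripts are also controlled after transcription, by iron regulatory proteins that bind a hairpin in the messenger, and inflammation is known to make macrophages retain iron.

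Values are log2 ratios of treated over untreated RNA, so 1 is a doubling and -1 a halving of the transcript. A gene's value is the mean of 3 sets, each the mean of its 2 dye-swapped arrays, with the SD of the sets. No source states the direction of the deposited ratios. It was taken as Cy5 over Cy3 and fits 4 genes that LPS induces, Tnf, Il1b, Il10 and Ccl2, each positive on 3 of 3 forward arrays and negative as deposited on 3 of 3 swapped arrays. Tests are limma's, over all 11231 features, with p-values adjusted by Benjamini and Hochberg and a threshold of 0.05. Exact zeros, 9.12% to 12.4% of an array, count as no measurement. The files hold ratios and no intensities, so how bright a spot was is unknown, the presence of a cell type cannot be read from its markers, and fewer cells with a transcript and less of it per cell cannot be told apart. Of 8 macrophage markers, 7 had a value on every array, and 4 of these passed the threshold, Adgre1 (0.83 ± 0.07, adjusted p = 0.000195) and Spi1 (0.47 ± 0.12, adjusted p = 0.00349) higher and Csf1r (-0.21 ± 0.07, adjusted p = 0.0354) and Fcgr1 (-0.47 ± 0.09, adjusted p = 0.00231) lower. Of 15 markers of other cells, 12 had a value on every array, and 1, the erythropoietin receptor gene Epor (0.39 ± 0.22, adjusted p = 0.0275), passed the threshold. The share of all features past it was 14.8%.

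After 2 h the exporter was lower and 3 of the other 4 measured members were higher. Slc40a1 was lower by 2.04-fold, while Slc11a2 was higher by 1.34-fold, Slc11a1 by 1.25-fold and Hmox1 by 1.18-fold. The rises were less firm than the fall. Slc40a1 passed the threshold under all 19 alternative settings, but Slc11a2 failed under 3 of 20, Slc11a1 under 5 of 19 and Hmox1 under 12 of 19. The value of Slc11a2 averages 2 probes, at 1.61-fold and 1.12-fold. Tfrc did not pass the threshold, and the ferritin genes could not be assessed. Of the 7 genes, 5 had a probe measured on all 6 arrays and were tested: 1 was lower, 3 were higher and 1 did not pass. Over all features 14.8% passed the threshold, 7.35% higher and 7.45% lower.

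**Figure D1:**
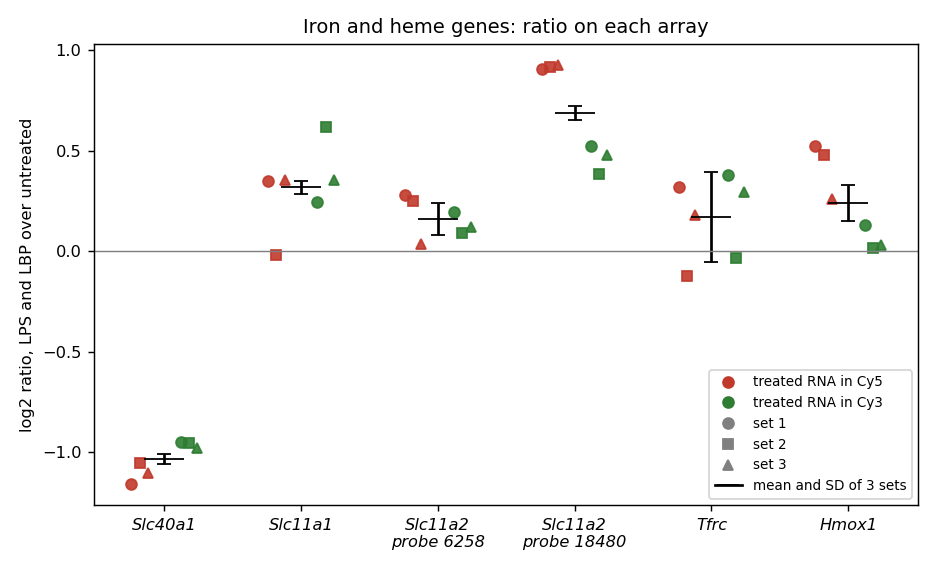
Log2 ratio of treated over untreated RNA (vertical axis) on each array for the 6 member probes measured on all 6 arrays (horizontal axis). Red points are forward arrays and green points swapped arrays, the shapes are sets 1 to 3, and the bar is the mean with the SD of the 3 sets. Slc40a1 lies between -1.16 and -0.95 on every array, below all points of the other probes.

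Slc40a1, the exporter, was read by 1 probe. Its log2 ratios were -1.16, -1.05 and -1.10 on the forward arrays of sets 1, 2 and 3, and -0.95, -0.95 and -0.98 on the swapped arrays. All arrays were low, and the forward arrays were each lower than the swapped ones. The sets gave a mean of -1.03 ± 0.03 (SD, n = 3 sets) with a 95% interval from -1.14 to -0.92, which is a fall of between 1.90-fold and 2.20-fold. Limma gave adjusted p = 4.79e-05. This was the ninth lowest value of the 11231 features and the seventh lowest among named genes, and only 10 features had a mean under -1, against 123 over 1. The gene stayed past the threshold under all 19 alternative settings tried, with values from -1.10 to -0.96 and adjusted p from 2.63e-08 to 0.0148.

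**Figure D2:**
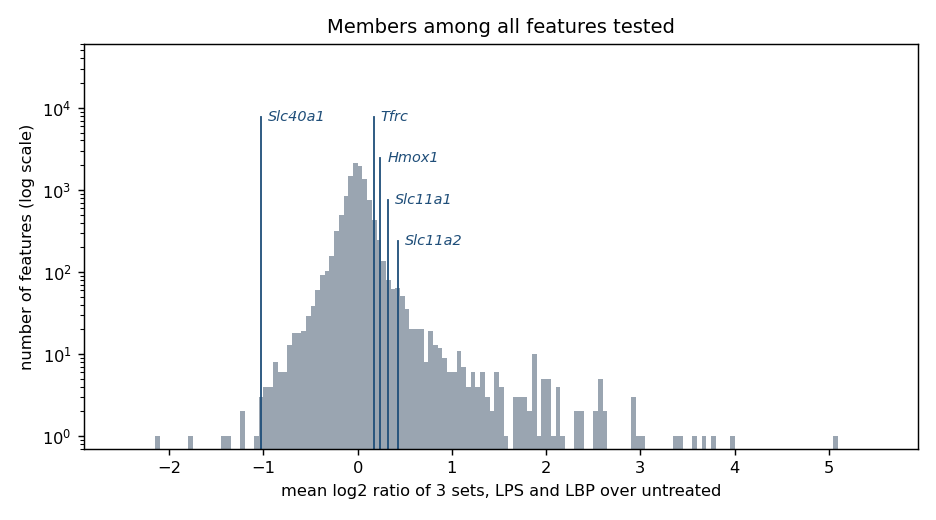
Histogram of the mean log2 ratio (horizontal axis) of all 11231 features, with the number of features on a log scale (vertical axis), and lines at the 5 tested members. The height of a line has no meaning. Slc40a1 at -1.03 lies in the lower tail, and the other 4 lie between 0.17 and 0.42 on the upper shoulder.

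Among the importers, Slc11a2 rose and its 2 probes gave different sizes. Probe 18480 read 0.91, 0.91 and 0.93 on the forward arrays of sets 1 to 3 and 0.52, 0.38 and 0.48 on the swapped arrays. Probe 6258 read 0.28, 0.25 and 0.03 on the forward arrays and 0.19, 0.09 and 0.12 on the swapped arrays. Every value of both probes was above 0, and no array of probe 6258 reached the lowest value of probe 18480. Fitted alone, probe 18480 stood at 0.69 ± 0.03 (1.61-fold, adjusted p = 0.000214) and probe 6258 at 0.16 ± 0.08 (1.12-fold, adjusted p = 0.101).

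The difference between these probes was 0.53 ± 0.08 over the sets and positive on 6 of 6 arrays. The exact sign-flip permutation test over 3 sets, two-sided, gave p = 0.25, the smallest that 3 sets can give. Which part or isoform of the transcript each probe reads was not analysed here. Their average, the value of the gene, was 0.42 ± 0.05 (95% interval 0.31 to 0.54, adjusted p = 0.00215), higher on 6 of 6 arrays. Its adjusted p was 0.0689 on the swapped arrays alone and 0.0760 without the forward array of set 2, and ran from 0.000214 to 0.101 over 20 alternatives.

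Slc11a1, the phagosomal transporter, was read by 1 probe and rose. Its ratios were 0.35, -0.02 and 0.36 on the forward arrays of sets 1 to 3 and 0.25, 0.62 and 0.35 on the swapped arrays. Set 2 held both its lowest and its highest value, and the other 4 arrays lay between 0.25 and 0.36. The set means were 0.30, 0.30 and 0.36, with a mean of 0.32 ± 0.03 (1.25-fold, 95% interval 0.21 to 0.43, adjusted p = 0.00597). Without both arrays of set 2 the value was 0.33 (adjusted p = 0.00285). It was higher on 5 of 6 arrays. The gene failed the threshold under 5 of 19 alternatives: without set 3 (0.30), without either array of set 2 (0.42 without the forward and 0.21 without the swapped one), and in each orientation alone. The adjusted p ranged from 0.00285 to 0.297.

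Of the members past the threshold, Slc11a1 is the one whose promoter RefSeq's table for GRCm38.p6 holds. Its 250 bases before the annotated start (chr1:74374953-74375202, plus strand) are shown as sequence context. Whether the sequence bears on the rise of Slc11a1 was not tested. Capitals mark the letters GAGGAA, the core bound by PU.1, a transcription factor of the macrophage lineage.

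Slc11a1: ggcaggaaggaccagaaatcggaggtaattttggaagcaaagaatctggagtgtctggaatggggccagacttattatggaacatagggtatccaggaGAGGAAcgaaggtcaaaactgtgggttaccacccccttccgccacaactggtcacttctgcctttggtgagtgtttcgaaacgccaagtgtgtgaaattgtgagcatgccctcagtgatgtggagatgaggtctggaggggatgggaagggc

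The match begins 152 bases before the start. GAGGAA, searched on both strands and chosen after the values were seen, occurs in 23.3% of the 32851 windows of this length in the table. The window holds neither TGACNNNGC, the core of the antioxidant response element (10.2% of windows), nor the loose NF-κB-like pattern (45.8% of windows), on either strand. Each of the 2 annotated Tfrc windows holds the NF-κB-like pattern, 1 match in the first and 3 in the second, but not GAGGAA or TGACNNNGC. The same holds for the Ftl1 window and for both annotated Fth1 windows, which have the NF-κB-like pattern and neither of the others. A planned search for the loop letters of the hairpin that iron regulatory proteins bind was not run. A match is letters in a window and not a binding site.

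Tfrc, the receptor that takes up transferrin-bound iron, differed between sets. One probe was measured on all arrays, and a second was listed at 0 on all 6. The measured probe read 0.32, -0.12 and 0.18 on the forward arrays and 0.38, -0.03 and 0.29 on the swapped arrays. Both arrays of set 2 were below 0, and all 4 arrays of sets 1 and 3 were above it. The set means of 0.35, -0.08 and 0.24 gave 0.17 ± 0.22 (95% interval -0.04 to 0.38, adjusted p = 0.267). Without set 2 the value was 0.29 with adjusted p = 0.00707, the one setting of 19 under which Tfrc passed. The adjusted p ranged from that value to 0.645.

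Storage could not be compared. The Fth1 probe, for the ferritin heavy chain, was listed at 0 on all 6 arrays. The Ftl1 probe, for the light chain, had a value on 1 array, the forward array of set 1, at 0.01. Slc40a1 stood at -1.16 on that array. No replicated value of either ferritin gene is given here.

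Hmox1, whose enzyme opens the heme ring and frees its iron, was slightly higher, and its size followed the dye orientation. The ratios were 0.52, 0.48 and 0.26 on the forward arrays but 0.13, 0.01 and 0.03 on the swapped arrays, so all were above 0 and the orientations did not overlap. The set means were 0.33, 0.25 and 0.15, a mean of 0.24 ± 0.09 (1.18-fold, 95% interval 0.11 to 0.37, adjusted p = 0.0306), higher on 6 of 6 arrays. The orientation means were 0.42 and 0.06, and the dye term of a limma fit to the 6 single arrays had adjusted p = 0.0915. The rise failed the threshold under 12 of 19 alternatives, with values from 0.06 to 0.42 and adjusted p from 0.0153 to 0.558. These included leaving out any array but the swapped one of set 3 (0.16 to 0.32), and leaving out set 1 (0.20) or set 3 (0.29).

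The exporter was then set against the other roles by the difference of log2 ratios on the same arrays. Against the mean of the importers Slc11a1, Slc11a2 and Tfrc, the differences were -1.43, -1.21 and -1.37 in sets 1 to 3, a mean of -1.33 ± 0.11. Against Hmox1 they were -1.38, -1.25 and -1.19, a mean of -1.27 ± 0.10. Both were negative on 6 of 6 arrays, from -1.58 to -1.20 for the importers and from -1.68 to -0.97 for Hmox1. The exact sign-flip permutation test over the 3 sets, two-sided, gave p = 0.25 for each (0.25 adjusted over the 2 contrasts), which is the smallest p that 3 sets allow. With the 6 arrays taken as separate units the same exact test gave p = 0.0312 for each (0.0312 adjusted), also the smallest it can give. The 2 arrays of a set are a dye-swap pair counted here as 1 replicate, so the test over sets is the main one. The planned contrast with the ferritin genes had no complete probe on the storage side.

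**Figure D3:**
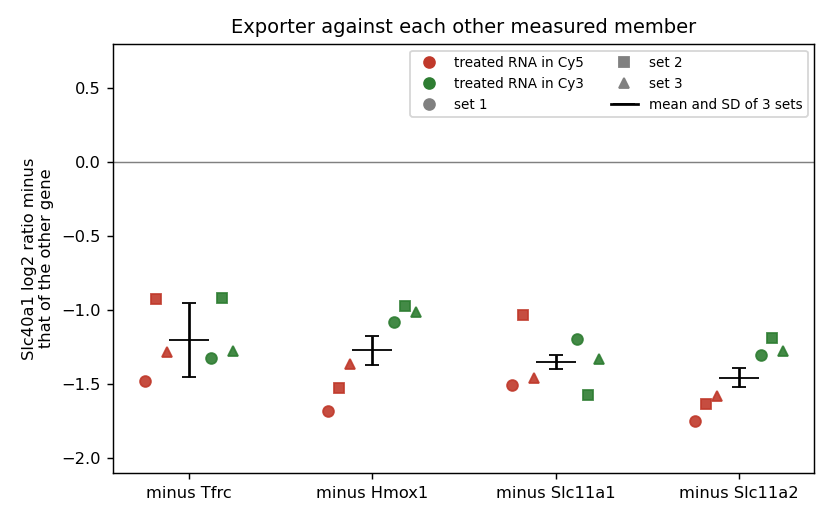
Log2 ratio of Slc40a1 minus that of Tfrc, Hmox1, Slc11a1 or Slc11a2 (vertical axis) on each array. Colours, shapes and bars are those of the plot of ratios by array. All points lie below 0, and on average the other gene stands higher than Slc40a1 by between 1.20 (Tfrc) and 1.46 (Slc11a2).

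In the order of their log2 ratios the tested members were Slc40a1, Tfrc, Hmox1, Slc11a1 and Slc11a2. The step from Slc40a1 to Tfrc was 1.20 ± 0.25 and present on 6 of 6 arrays. The step from Tfrc to Hmox1 (0.07 ± 0.22) held in 1 of 3 sets, and that from Hmox1 to Slc11a1 (0.08 ± 0.12) in 2 of 3, so these neighbours did not differ beyond their spread. The step from Slc11a1 to Slc11a2 (0.11 ± 0.07) held in 3 of 3 sets but on 4 of 6 arrays. Slc11a2 lay above Hmox1 on 6 of 6 arrays, by 0.18 ± 0.05. Its place in this order is that of the average of its 2 probes. Probe 18480 stood at 0.69, but probe 6258 at 0.16, below the means of Tfrc (0.17), Hmox1 (0.24) and Slc11a1 (0.32).

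Other genes of iron and heme handling were read through 9 lists of 70 genes in all, of which 51 had a probe and 49 were tested. Of these, 7 were higher, 4 were lower and 38 did not pass, with a median log2 ratio of -0.01, against 14.8% of all features past the threshold and a median of -0.00. The genes past it lay in 4 lists: heme synthesis, partners of heme breakdown, transcription factors with Keap1, and NRF2 target genes. That count was 5 when set 3 was left out, 7 for set 1, and 5 to 7 for each array of sets 1 and 2.

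**Figure D4:**
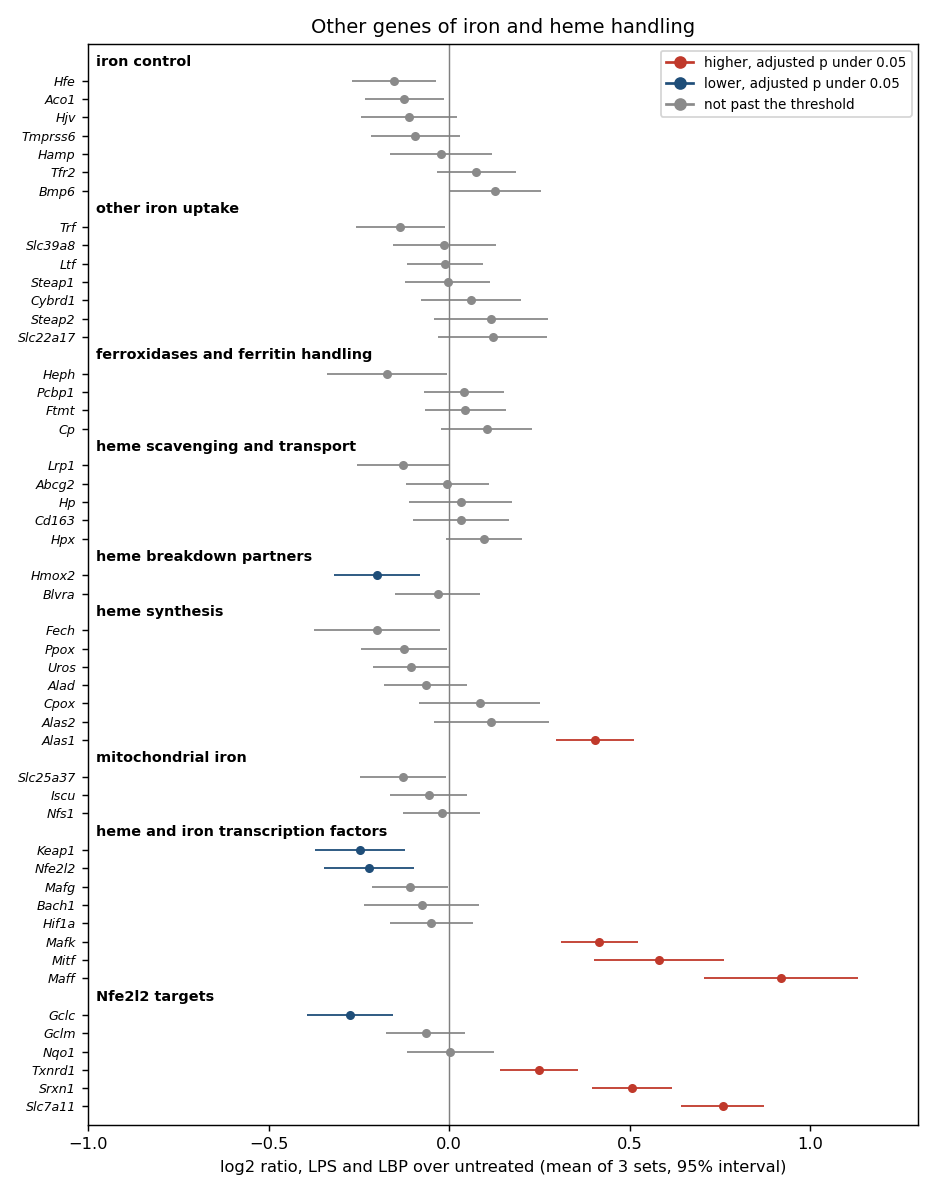
Mean log2 ratio of 3 sets with the 95% interval of the limma fit (horizontal axis) for the 49 tested genes of the 9 lists (vertical axis, grouped by list). Red and blue mark genes higher and lower at an adjusted p under 0.05, and grey those not past it. The highest is Maff at 0.92 and the lowest Gclc at -0.27, and no gene of the lists for iron control, uptake, ferritin handling, scavenging or mitochondrial iron is coloured.

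Systemic and cellular control of iron showed 0 of 7 tested genes past limma's threshold, with values from -0.15 to 0.13. The iron regulatory protein gene Aco1 stood at -0.12 ± 0.03 (adjusted p = 0.132). Its orientations differed in sign, with means of 0.06 on the forward and -0.31 on the swapped arrays. Hfe, the gene of a membrane partner of the transferrin receptor, stood at -0.15 ± 0.06 (adjusted p = 0.0895). Other uptake genes (0 of 7, -0.14 to 0.12), ferroxidases and ferritin handling (0 of 4, -0.17 to 0.10), heme scavenging and transport (0 of 5, -0.13 to 0.10) and mitochondrial iron (0 of 3, -0.13 to -0.02) had no gene past it either. Ceruloplasmin (Cp), the ferroxidase that works with the exporter, stood at 0.10 ± 0.08 (adjusted p = 0.265). Slc25a37, which encodes mitoferrin, stood at -0.13 ± 0.07 (adjusted p = 0.155).

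Heme synthesis had 1 of 7 tested genes past the threshold and the partners of heme breakdown 1 of 2, against 14.8% of all features. Alas1, the first enzyme of heme synthesis, rose 1.32-fold (0.40 ± 0.03, adjusted p = 0.0022), on 6 of 6 arrays and under all 18 alternatives. It was the only 1 of 7 tested synthesis genes to pass, and the median of that list was -0.06. Hmox2, the constitutive heme oxygenase, was lower by 1.15-fold (-0.20 ± 0.07, adjusted p = 0.0421), on 6 of 6 arrays, the opposite sign to Hmox1. It failed the threshold under 13 of 18 alternatives, including leaving out any single set or array, with adjusted p from 0.00495 to 0.235. Hmox1 failed under 12 of 19, and the difference between these genes was not tested. Blvra, which encodes the biliverdin reductase that follows heme oxygenase, stood at -0.03 ± 0.06 (adjusted p = 0.729).

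Transcription factors of heme and iron genes, listed together with the NRF2 inhibitor gene Keap1, had 3 higher, 2 lower and 3 members not past the threshold among 8 tested, with a median of -0.06. The small MAF genes encode proteins that pair with NRF2 or with the heme-sensing repressor BACH1. Of these, Maff stood at 0.92 ± 0.23 (1.89-fold, adjusted p = 0.00128) and Mafk at 0.42 ± 0.00 (1.33-fold, adjusted p = 0.00188), both higher on 6 of 6 arrays. Mafg, the other small MAF gene listed, did not pass, at -0.11 ± 0.01 (adjusted p = 0.170), and was below 0 on 6 of 6 arrays. Mafk passed under all 18 alternatives, and Maff failed under 2, with zeros kept and on the forward arrays alone (adjusted p up to 0.0598). Mitf, a regulator of lysosomal and pigment genes, rose on 6 of 6 arrays (0.58 ± 0.18, adjusted p = 0.00397), and failed under 4 of 18 alternatives, without set 3, without the swapped array of set 2, with zeros kept and on the forward arrays alone (adjusted p up to 0.0873). Nfe2l2, the gene of NRF2 itself, was lower at -0.22 ± 0.08 (adjusted p = 0.0362), and Keap1, which targets NRF2 for degradation, at -0.25 ± 0.09 (adjusted p = 0.0258). Nfe2l2 averaged -0.29 on the forward and -0.16 on the swapped arrays. Keap1 averaged -0.45 on the forward arrays but -0.04 on the swapped ones, and was lower on 5 of 6 arrays. Both lower calls were lost on leaving out set 3 or most single arrays and under most alternatives in all, 12 of 18 for Nfe2l2 (adjusted p from 0.00689 to 0.302) and 10 of 18 for Keap1 (0.0124 to 0.747).

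NRF2 target genes outside iron handling had 3 higher, 1 lower and 2 members not past the threshold among 6 tested, with a median of 0.13. Slc7a11, a cystine transporter gene, rose 1.69-fold (0.76 ± 0.06, adjusted p = 0.000242) on the probe measured on all arrays. A second Slc7a11 probe had 4 values, from -1.98 to 1.72, with a mean of -0.63, and the call was lost with missing values allowed (0.27) and with zeros kept (0.17). Srxn1 (sulfiredoxin) rose 1.42-fold (0.51 ± 0.04, adjusted p = 0.000996) and Txnrd1 (thioredoxin reductase) 1.19-fold (0.25 ± 0.03, adjusted p = 0.0143), the latter failing under 8 of 18 alternatives, among them leaving out set 1 or 3 or any array of sets 1 and 2. Gclc, a subunit gene of the enzyme that starts glutathione synthesis, was lower at -0.27 ± 0.07 (adjusted p = 0.0144) and failed under 8 of 18, among them leaving out set 1 or 3, either array of set 2, or the swapped array of set 1. Its partner subunit gene Gclm stood at -0.07 ± 0.04 (adjusted p = 0.419). Nqo1, the other target not past the threshold, stood at 0.00 ± 0.07 (adjusted p = 0.983).

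For each member past the threshold, the 3 named genes closest in ratio over the 6 arrays were found by the root mean square distance, as a description. Closest to Slc40a1 were Rgs14 (distance 0.09 on the log2 scale, mean ratio -1.05 ± 0.05), Snx24 (0.11, -0.94 ± 0.04) and Zmynd8 (0.12, -0.96 ± 0.11). Closest to Slc11a2 were Rela (0.07, 0.38 ± 0.06), Ndel1 (0.07, 0.44 ± 0.01) and Pex11a (0.07, 0.40 ± 0.02). Closest to Slc11a1 were Stxbp3 (0.07, 0.26 ± 0.04), Myom2 (0.08, 0.27 ± 0.06) and H2-Q2 (0.08, 0.26 ± 0.03), and closest to Hmox1 were Rac3 (0.07, 0.20 ± 0.08), D11Wsu47e (0.07, 0.24 ± 0.05) and Fxr2 (0.08, 0.22 ± 0.04). A like direction and a like array pattern are what the choice by distance selects.

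Across the probes of the members, the dye term was past the threshold for 1, Slc11a2 probe 18480, at 0.92 on forward and 0.46 on swapped arrays (dye term adjusted p = 0.0485). Over all 13224 complete probes, 1.55% passed for the dye term. Averaging both orientations cancels such a term when it is additive, and the mean of both was 0.69.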

How the data were processed

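The authors deposited 1 log2 ratio per probe and array for 6 two-colour arrays. Their log base was read from the numbers themselves: converted to log10, 87.3% to 92.8% of an array's non-zero ratios were whole at 7 decimals (tolerance 0.001 of that decimal), and under other bases 0.264% at most. For background correction and dye normalization, the method is not given in the sources used here. The median ratio of an array was 0.00 to 0.02, so arrays were not normalized further.

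Probes were named by the platform annotation (13738 with 1 symbol, 13694 matched to RefSeq by gene ID). Exact zeros were dropped, arrays with treated RNA in Cy3 were turned in sign, the 13224 complete probes were averaged per gene (11231 features, 9472 of them named genes), and the arrays of a set were averaged. This counts a dye-swap pair as 1 replicate. In the ratios as deposited, before turning, deviations of same-numbered arrays from their orientation's mean correlated at 0.40, 0.43 and 0.14 across features. For turned ratios these correlations have the opposite sign, so they do not show a treatment response shared within a set. The within-set correlation that duplicateCorrelation estimated for the random-effect block, over the turned ratios, was -0.44 without a dye term and -0.06 with one. The set means were tested against 0 across all genes with limma 3.58.1 in R 4.3.3 (lmFit, eBayes, two-sided). Contrasts used exact sign-flip tests over sets. Alternatives covered zeros, missing values, centring, blocking, a dye term, single orientations, single probes, and leaving out sets or arrays. Members, lists and tests were chosen with earlier results of these data known. Of list genes, the text names all past the threshold. Others are taken from the first 3 per list that did not pass, and not all of those are named. The number of arrays limits the precision.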

Additional observations from a re-analysis of the deposited data

Results flagged for a closer look

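The ratio of Slc11a2 probe 18480 was 0.46 higher on forward arrays (treated RNA in Cy5) than on swapped ones, and it was singled out because the dye term of the fit to single arrays passed the threshold (adjusted p = 0.0485 by limma). Both orientations gave a higher ratio after treatment, and the probe's value of 0.69 weights both equally. No array group held more than 3 arrays, so no single array was tested as standing apart.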

How the results depend on the processing

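Slc40a1 kept its direction and its call under all 19 alternatives, and both contrasts kept their direction under all 15. With 6 single arrays and no replicate block the contrasts were -1.33 and -1.27 and passed (exact p = 0.0312), which 3 sets cannot reach; the paired, set-averaged test is the main one. Hmox1 missed the threshold at an unchanged 0.24 with zeros kept, with missing values allowed and with no replicate block, at 0.42 and 0.0592 in the Cy5 and Cy3 orientations alone, and it ran from 0.16 to 0.32 when a set or array was left out. Slc11a1 missed it at 0.23 and 0.41 in the 2 orientations and ran from 0.21 to 0.42. Slc11a2 missed it at 0.30 in the Cy3 orientation and at 0.16 on probe 6258 alone, and ran from 0.37 to 0.48. Tfrc ran from 0.0790 to 0.29. The count of 4 members past the threshold was 2 and 1 in the Cy5 and Cy3 orientations and ran from 1 to 5 on leaving out; it was 2 without set 3, 1 without the set 2 array in Cy5 and 2 without that in Cy3. The 11 list genes became 4 with zeros kept, 5 and 6 in the orientations, and 5 to 10 on leaving out (these list counts were added after seeing the data). Genes not past the threshold changed sign: Aco1 to 0.0568 in Cy5 alone, Blvra to 0.0316 and Gclm to 0.0385 in Cy3 alone, and on leaving out Blvra ran from -0.0609 to 0.0041 and Gclm from -0.15 to 0.0212. For 29 further genes, Mafg and Nqo1 not among them, 390 values kept direction and call, 124 lost the call, 3 gained it and 5 turned sign. Beyond fewer arrays where some were left out, the causes were not tested. With ratios only, signal over background is unknown.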
